A study of Mus musculus with 12 samples.

Results

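Pou4f1, Pou4f2, Pou4f3, Isl1, Isl2 and Atoh7, 6 transcription factor genes by which retinal ganglion cells (RGCs) are specified and recognised, were followed by symbol through the deposited tables. All 6 were found in both tables, out of 38720 genes listed. The samples were RGCs and the remaining retinal cells (non-RGCs) of mouse pups on postnatal day 0, from WT mice and from Math5-Cre;Ezh2 f/f mice (mKO), in which exons for the catalytic SET domain of the histone methyltransferase Ezh2 are deleted by Cre. There were 3 libraries in each of the 4 groups, 12 in all, and RGCs had been captured with magnetic beads against the surface protein Thy-1. Mice of the C57/BL6 background were used, and the labels call the controls wild type, while the methods of the study name Ezh2 flox/flox littermates as controls unless stated otherwise. Math5 is another name of Atoh7, and Cre was knocked in under its promoter. The mKO mice therefore differ from WT both in Ezh2 and at the Atoh7 locus. These differences cannot be told apart for any gene, Atoh7 and the genes that follow it included. The study also describes Cre as active in only part of the RGCs.

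Atoh7 encodes a bHLH factor made for a short time by retinal progenitors as they leave the cell cycle, and it is needed for most RGCs to form. Pou4f2 (Brn3b) and the LIM homeodomain factor Isl1 follow it and together switch on many genes of the differentiating RGC. Pou4f1 (Brn3a) and Pou4f3 (Brn3c) are relatives of Pou4f2 that appear later and mark subsets of RGCs, and Isl2 marks RGCs with particular axon paths. Isl1 is also made by amacrine and bipolar cells, whereas the Pou4f genes are nearly exclusive to RGCs within the retina.

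The libraries held 7139633 to 13014004 reads on genes, the shallowest being mKO non-RGC library C. The deposited tables give 1 mean per genotype, and the reads of each library were recovered from these means. The recovered libraries carry no replicate numbers and are lettered A to C within a group from the deepest to the shallowest. Reads of Ezh2 gave 95.2 to 136 RPM (the usual library-scaled read count, reads divided by the library's total) in WT RGCs, 119 to 129 in mKO RGCs, 145 to 194 in WT non-RGCs and 191 to 249 in mKO non-RGCs. This gene-level count includes the exons that are not deleted and so does not check the genotype. Of 9 RGC markers, 9 were higher in RGCs than in non-RGCs of WT mice and 8 of mKO mice, while 7 and 8 of 8 progenitor markers were lower. WT RGC library C stood apart. Its 8 progenitor markers summed to 1713 RPM, against 1004 and 1063 in the other WT RGC libraries and 1072 to 1182 in mKO RGCs. The log2 fold change between genotypes also fell with the GC content of a gene's exons (Spearman's rho -0.72 across 12262 genes in RGCs and -0.49 across 11713 in non-RGCs, where genes are not independent replicates), so values with and without this trend are given below.

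The promoters of the genes differ in their content of CpG, the dinucleotide that is rich in promoters bound by the complex of Ezh2. The bases upstream of the RefSeq start (GRCm38.p6) are shown for Pou4f1, Pou4f2 and Isl1, with each CpG in capitals. Before correction for GC content, Pou4f1 and Pou4f2 were called in both fractions and Isl1 in neither. Not all of this held after correction, as given below. Pou4f1 (chr14:104468000-104468249, minus strand) has 47 CpG in 250 bases, Pou4f2 (chr8:78436648-78436897, minus strand) has 17 in 250, and Isl1 (chr13:116309690-116309938, minus strand) has 33 in 249.
Pou4f1: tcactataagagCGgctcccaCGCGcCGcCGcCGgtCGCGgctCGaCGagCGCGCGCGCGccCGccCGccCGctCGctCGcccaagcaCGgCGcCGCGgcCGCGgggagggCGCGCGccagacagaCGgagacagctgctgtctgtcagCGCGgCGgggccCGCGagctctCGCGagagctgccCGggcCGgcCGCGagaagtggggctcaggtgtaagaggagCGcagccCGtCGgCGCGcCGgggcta
Pou4f2: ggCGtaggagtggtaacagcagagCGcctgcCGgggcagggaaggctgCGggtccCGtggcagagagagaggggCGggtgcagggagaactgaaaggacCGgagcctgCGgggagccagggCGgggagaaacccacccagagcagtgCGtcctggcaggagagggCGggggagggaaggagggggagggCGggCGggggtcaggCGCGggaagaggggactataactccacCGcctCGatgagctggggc
Isl1: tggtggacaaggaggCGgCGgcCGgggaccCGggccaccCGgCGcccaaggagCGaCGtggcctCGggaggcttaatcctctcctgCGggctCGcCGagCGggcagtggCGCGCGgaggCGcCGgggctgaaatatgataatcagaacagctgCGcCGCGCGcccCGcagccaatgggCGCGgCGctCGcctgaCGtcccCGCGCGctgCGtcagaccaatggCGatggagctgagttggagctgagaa
Of 32841 RefSeq promoters, the median held 6 CpG in the 250 upstream bases. Fewer CpG than in Pou4f1 were found in 99.8% of them, fewer than in Isl1 in 96.0%, fewer than in Pou4f2 in 76.5%, fewer than in Isl2 (16 CpG) in 74.6% and fewer than in Atoh7 (9 CpG) in 59.7%. Pou4f3 had no entry in the promoter table. The Isl2 window (chr9:55540899-55541148) lies wholly within the gene span given below. The Atoh7 window (chr10:63099535-63099784) runs past the gene start given below, with only 116 bases before it. The sequence CAGCTG, a motif for bHLH factors that reads the same on both strands, occurred once in the Pou4f1 window and once in the Isl1 window and in 13.0% of all windows. CATCTG, searched on both strands, occurred once in the Atoh7 window and in 14.4% of all windows. These matches only say that the letters are there.

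Levels of the 6 genes set RGCs and non-RGCs far apart. In WT RGCs Pou4f1 had 334, 342 and 329 RPM in libraries A, B and C, and in WT non-RGCs 4.36, 3.85 and 11.7. Pou4f2 had 237, 241 and 198 RPM in WT RGCs and 4.36, 3.24 and 6.22 in WT non-RGCs. Pou4f3 had 117, 111 and 87.8 against 0.494, 0.0875 and 1.71, the last values standing for only 6, 1 and 19 reads. All 3 Pou4f genes were therefore low in WT non-RGCs, with library C the highest for each. Isl1 had 155, 144 and 129 RPM in WT RGCs and 49.5, 52.9 and 51.3 in WT non-RGCs. Isl2 had 126, 118 and 105 against 20.8, 18.5 and 14.6. Both Isl genes were thus higher in every RGC library than in any non-RGC library, but kept a clear level in non-RGCs.

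**Figure D1:**
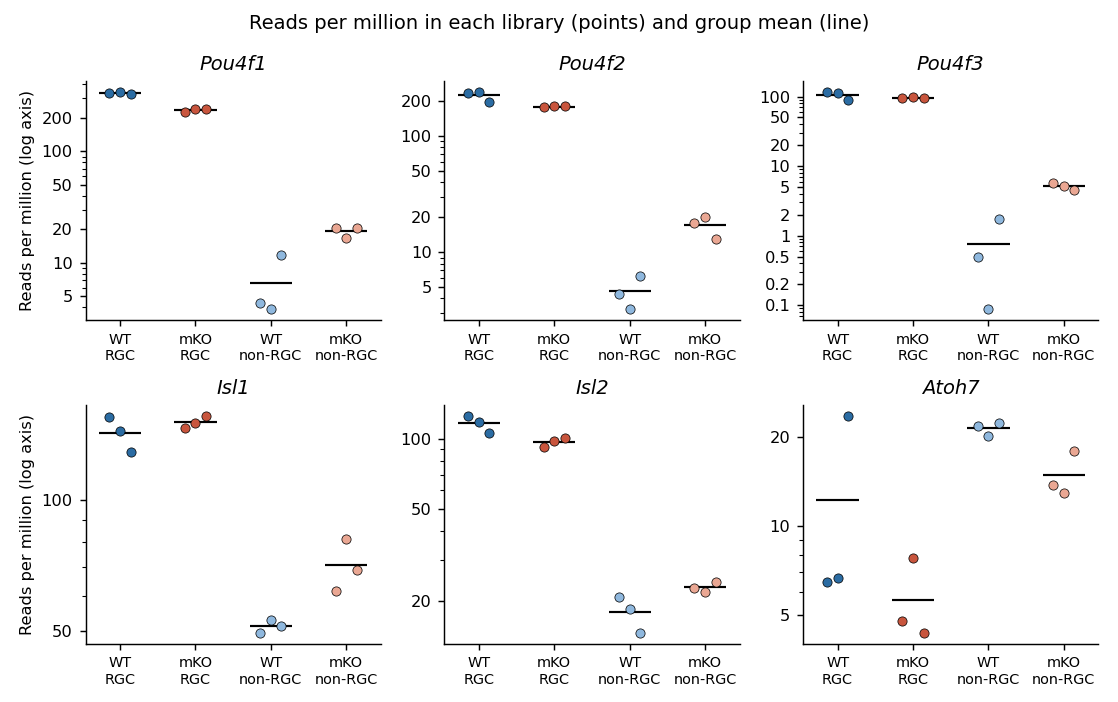
Library-scaled reads (RPM, log axis, a different range in each panel) of the 6 genes in each library of the 4 groups, with points for libraries A, B and C from left to right and a line for the group mean. The Pou4f genes lie at 87.8 to 342 RPM in RGC libraries of either genotype and at 0.0875 to 20.7 in non-RGC libraries, while Atoh7 has 1 high WT RGC library at 23.7.

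In a limma fit over the 12 libraries on log2(RPM + 0.5), with reads scaled alike in both fractions since the size factors of the 2 tables were set separately, all 6 genes differed between the fractions in WT mice. The log2 difference, RGCs over non-RGCs, was 6.59 for Pou4f3 (standard error 0.345, adjusted p = 1.28e-08), 5.72 for Pou4f1 (0.280, 7.01e-09), 5.50 for Pou4f2 (0.200, 6.29e-10), 2.68 for Isl2 (0.129, 6.22e-09) and 1.46 for Isl1 (0.107, 2.33e-07). These were folds of 96.3, 52.7, 45.3, 6.39 and 2.76. Of 16517 genes tested, 24.0% were called higher and 27.2% lower in WT RGCs (adjusted p under 0.05). In mKO mice the same differences were 4.11, 3.58, 3.39, 2.06 and 1.09, with adjusted p-values from 5.18e-08 to 3.36e-06, where 26.1% of the genes were called higher and 34.8% lower. RNA from cells of another type and RNA per cell cannot be told apart in such bulk samples.

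Atoh7 was the exception, being lower in RGCs. It had 6.49, 6.69 and 23.7 RPM in WT RGCs and 21.8, 20.2 and 22.4 in WT non-RGCs, so that WT RGC library C lay above every non-RGC library. The log2 difference was -1.04 (standard error 0.388, adjusted p = 0.0385) in WT and -1.35 (0.388, 0.00913) in mKO mice. The WT call was lost in 5 of the leave-one-out fits, those without WT RGC library A or B or any 1 WT non-RGC library (values from -1.08 to -0.74, adjusted p up to 0.169), while without WT RGC library C the difference was -1.63.

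Compared per kilobase of exon, Pou4f1 and Pou4f2 were the most abundant of the 6 in WT RGCs, at 71.7 ± 1.45 and 70.2 ± 7.41 RPKM (RPM per kilobase of exon, ± SD, n = 3), with ranges that overlapped. They were followed by Isl2 (53.1 ± 4.70), Pou4f3 (43.8 ± 6.38) and Isl1 (36.0 ± 3.32), each overlapping the next, and by Atoh7 (7.54 ± 6.06), whose range lay apart from the others. In mKO RGCs Pou4f2 (56.2 ± 0.826 RPKM) stood above Pou4f1 (50.4 ± 1.5) in every library, the rest of the order being the same. In WT non-RGCs Atoh7 (13.2 ± 0.704 RPKM) and Isl1 (12.9 ± 0.430) led with overlapping ranges, ahead of Isl2 at 8.19 ± 1.43, and the Pou4f genes lay at 1.44 ± 0.470 or lower. In mKO non-RGCs Isl1 led with 17.8 ± 2.52 RPKM, Isl2 (10.5 ± 0.489) and Atoh7 (9.14 ± 1.64) overlapped, and Pou4f2, Pou4f1 and Pou4f3 had 5.31, 4.13 and 2.14. The place of Isl1 depends on the gene model. Over the longest transcript instead of all exons it had 56.6 RPKM in WT RGCs, above Pou4f3 at 44.6 and below Isl2 at 62.8. In mKO RGCs it then came first with 59.8 RPKM, ahead of Pou4f2 (56.2), Pou4f1 (52.9) and Isl2 (52.4).

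The first genotype comparison asked whether these regulators differed between mKO and WT RGCs. Pou4f1, Pou4f2 and Isl2 were lower in mKO RGCs, by 1.55-, 1.36- and 1.30-fold, and Pou4f3, Isl1 and Atoh7 did not pass the test. Values here are normalised read counts, the recovered reads divided by the size factor of their library, and the test was limma on log2(count + 1) with adjustment over 16085 genes. Of these genes, 21.2% were called lower and 16.3% higher, so that the 3 of 6 members called lower stand against 37.5% of all genes called in either direction. Of the 9 RGC markers, 8 were lower in mKO RGCs too, 0 were higher and 1 was not called (median log2 fold change -0.50). Their summed level was 2037 to 2154 RPM in WT and 1623 to 1664 in mKO RGCs. The fall was thus not particular to the members.

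Pou4f1 (ENSMUSG00000048349; chromosome 14 from 104461676 to 104467999, minus strand) had 4178, 4334 and 4067 normalised reads in WT RGCs and 2581, 2754 and 2777 in mKO RGCs. All 3 mKO values lay under the lowest WT value, as they did for 28.2% of the genes tested. Its log2 fold change was -0.63 (95% interval -0.76 to -0.50, adjusted p = 0.000651). Corrected for GC content it was -0.60 (adjusted p = 0.00192), and corrected for both GC content and the density of reads on the exons it was -0.27 (0.0320). Pou4f1 was the only member called lower in RGCs under all 3 of these settings. By RT-PCR on purified RGCs, the study found no significant difference in Pou4f1 between mKO mice and littermate controls. Its text and figure legend give different ages for the pups used there.

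Pou4f2 (ENSMUSG00000031688; chromosome 8 from 78433010 to 78436645, minus strand) had 2960, 3047 and 2446 normalised reads in WT RGCs and 2009, 2076 and 2118 in mKO RGCs, without overlap. This was a log2 fold change of -0.44 (-0.65 to -0.23, adjusted p = 0.00833). Corrected for GC content it was -0.36 (adjusted p = 0.0414), and after both corrections -0.04 (0.841). Pou4f3 (ENSMUSG00000024497; chromosome 18 from 42394539 to 42397249, plus strand) had 1459, 1406 and 1087 normalised reads in WT and 1085, 1134 and 1098 in mKO RGCs. WT library C overlapped the mKO libraries, and the log2 fold change of -0.24 (-0.50 to 0.02) had an adjusted p = 0.132. Without WT library C it was -0.37, with an adjusted p = 0.000342 in limma. Corrected for GC content it was -0.013 (adjusted p = 0.955), and after both corrections 0.17 (0.417).

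Before correction the fold change was thus farthest from 0 for Pou4f1 and nearest for Pou4f3, with intervals that overlapped between neighbours, and the order was not tested. After both corrections Pou4f2 was nearest to 0. The reads of a library also give the balance between the 3 genes without any scaling. For each read of Pou4f2 there were 1.41 to 1.66 reads of Pou4f1 in WT RGC libraries and 1.28 to 1.33 in mKO, and 0.444 to 0.493 reads of Pou4f3 in WT and 0.518 to 0.546 in mKO. Neither ratio overlapped between the genotypes, and the share of other gene ratios for which this holds was not computed. These are ratios of 3 libraries against 3, for which the smallest exact permutation p-value is 0.1, and no test was run.

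Isl1 (ENSMUSG00000042258; chromosome 13 from 116298281 to 116309689, minus strand) had 1934, 1822 and 1591 normalised reads in WT and 1653, 1719 and 1815 in mKO RGCs, and the groups overlapped. The log2 fold change was -0.04 (-0.23 to 0.15, adjusted p = 0.728), and 0.08 (0.428) when libraries were scaled to their total reads instead, which moved the median of all genes by 0.12. The exons of Isl1 have a GC content of 42.4%, and the median over the 300 genes nearest to it in GC content was 0.37. Corrected for GC content Isl1 was at -0.35 (adjusted p = 0.0398), and after both corrections at -0.02 (0.903).

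Isl2 (ENSMUSG00000032318; chromosome 9 from 55538672 to 55546180, plus strand) had 1573, 1496 and 1305 normalised reads in WT and 1048, 1121 and 1179 in mKO RGCs, without overlap, and its log2 fold change was -0.38 (-0.58 to -0.18, adjusted p = 0.0123). Its exons have a GC content of 60.2%, and the 300 genes nearest in GC content had a median of -0.51. Corrected for GC content Isl2 was at 0.14 (adjusted p = 0.322) and after both corrections at 0.22 (0.167), so that its direction turned. Without mKO RGC library A the call was lost (adjusted p = 0.0537). The antisense gene Gm17226 lies within Isl2, and without a stated strand in the counting the reads of the pair cannot be told apart. Gm17226 itself had 6 to 22 reads in the RGC libraries, against 1118 to 1552 reads of Isl2.

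Ratios to Isl1 were also taken within each library. Pou4f1 had 2.16 to 2.56 reads per Isl1 read in WT RGCs and 1.53 to 1.60 in mKO RGCs. For Pou4f2 the ranges were 1.53 to 1.67 and 1.17 to 1.22, and for Isl2 0.813 to 0.821 and 0.634 to 0.652. For Pou4f3, which was not called, the ratio was 0.683 to 0.772 in WT and 0.605 to 0.660 in mKO RGCs. None of these ranges overlapped between the genotypes. The share of all genes for which this holds was not computed. The ratios are free of scaling but not of the GC trend, since Isl1 has the lowest GC content of the 6 genes.

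**Figure D2:**
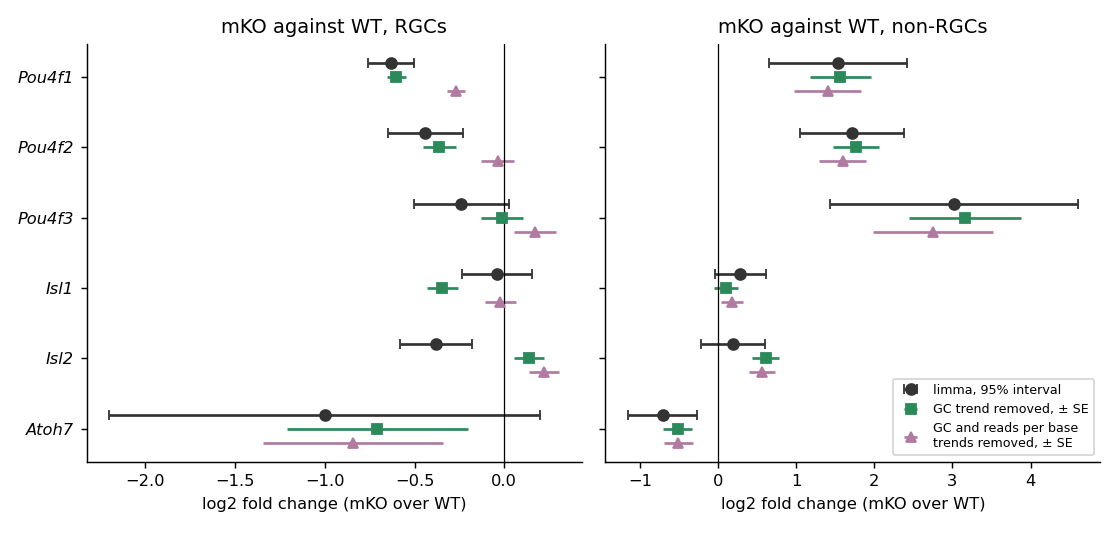
Log2 fold change of the 6 genes, mKO over WT, in RGCs (left) and non-RGCs (right), each panel with its own axis. Circles give the limma value with its 95% interval, squares the value with the GC trend removed and triangles with the GC and reads per base trends removed, both ± SE. Pou4f1 and Pou4f2 lie below 0 in RGCs and above 0 in non-RGCs, and Isl2 in RGCs crosses from -0.38 to 0.14 and 0.22.

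The tables had been made from reads with duplicates removed, which limits how many single-end reads a stretch of exon can hold. In WT RGCs Pou4f1 and Pou4f2 had 82.8 and 81.4 reads per 100 bases of exon on average, Isl2 61.5, Pou4f3 50.9 and Isl1 41.7, whereas in WT non-RGCs no member exceeded 15.2. The effect of this step on the fold changes was not tested.

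In non-RGCs all 3 Pou4f genes rose in mKO, Atoh7 fell, and the Isl genes did not pass the test. Of 15326 genes, 4.18% were called higher and 6.43% lower. Pou4f1 had 47.8, 42.6 and 136 normalised reads in WT non-RGCs and 204, 166 and 206 in mKO non-RGCs. The log2 fold change was 1.54 (95% interval 0.66 to 2.42, adjusted p = 0.0376), a 2.90-fold rise. Pou4f2 had 47.8, 35.8 and 71.9 against 177, 199 and 130, and its log2 fold change was 1.72 (1.05 to 2.39, adjusted p = 0.0116), a 3.29-fold rise. Pou4f3 had 5.41, 0.968 and 19.8 against 56.3, 51.8 and 45.2. Its log2 fold change was 3.02 (1.43 to 4.61, adjusted p = 0.0293), from only 26 reads in the 3 WT libraries together.

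For each Pou4f gene every mKO non-RGC library lay above every WT one, which held for 17.5% of all genes tested. The calls were close to the threshold. Corrected for GC content the log2 fold changes were 1.56, 1.77 and 3.16 for Pou4f1, Pou4f2 and Pou4f3, but only Pou4f2 kept an adjusted p-value under 0.05 (0.0318, against 0.0648 and 0.0539). Leaving out any 1 library other than WT C ended the calls of Pou4f1 and Pou4f3 (adjusted p up to 0.111 and 0.109), and leaving out mKO library B ended that of Pou4f2 (0.0714). Without WT non-RGC library C, which held the most Pou4f reads of the WT libraries, the log2 fold changes of Pou4f1 and Pou4f3 were 2.06 and 3.87.

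Isl1 had 543, 585 and 593 normalised reads in WT and 610, 803 and 695 in mKO non-RGCs, all mKO libraries being higher. The log2 fold change of 0.28 (-0.04 to 0.61) had an adjusted p = 0.223. Isl2 had 228, 204 and 169 against 225, 217 and 243, with overlap, and a log2 fold change of 0.20 (-0.21 to 0.61, adjusted p = 0.502). With the GC trend removed these values were 0.10 (adjusted p = 0.715) and 0.61 (0.0845).

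The rise of the Pou4f genes in mKO non-RGCs went together with a rise of other genes of RGCs and of blood markers. Of the 9 RGC markers, 6 rose in mKO non-RGCs, 0 fell and 3 were not called, with a median log2 fold change of 0.92 against -0.03 for all genes. Thy1, the antigen used for the capture, had 0.411, 0.175 and 0.811 RPM in WT non-RGCs and 6.78, 8.07 and 9.24 in mKO non-RGCs (log2 fold change 3.86, adjusted p = 0.00480). The summed level of the 9 markers was 447 to 483 RPM in WT and 516 to 717 in mKO non-RGCs. The 4 blood markers, all called higher in mKO non-RGCs (median log2 fold change 1.84) and also in mKO RGCs (1.22), summed to 10.1 to 15.8 RPM in WT and 44.4 to 66.95 in mKO non-RGCs. Of 9 photoreceptor markers 4 were lower, with sums of 1152 to 1273 RPM in WT and 980.1 to 1128 in mKO non-RGCs. The part of RNA from these cells in the result was not tested.

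Levels in non-RGCs were therefore also set against the RGCs of the same genotype, as RPM. Pou4f1 in non-RGCs was at 1.98% of its RGC level in WT and 8.21% in mKO, Pou4f2 at 2.05% and 9.45%, and Pou4f3 at 0.727% and 5.34%. Thy1 went from 0.246% to 6.48%. Isl2 was at 15.4% and 23.6%, and Isl1 at 36.0% and 47.0%. All 5 genes thus held a larger share of their RGC level in mKO, whether or not the change in non-RGCs passed the test. So did every RGC marker, and Atoh7 (175% and 264%) and Tubb3 (72.2% and 84.5%) although their means fell in non-RGCs. The RGC means used as divisor were lower in mKO for Pou4f1 (335 and 235 RPM), Pou4f2 (225 and 180), Pou4f3 (105 and 96.3) and Isl2 (116 and 97.1). For Isl1 they were 142 and 150. How many of all genes moved this way was not computed, so the larger share in mKO is not shown to be particular to the members. In absolute terms, the difference between mKO and WT non-RGCs came to 5.38% of the mKO RGC level for Pou4f1, 6.90% for Pou4f2, 4.55% for Pou4f3 and 5.14% for Isl2. It came to 6.10% for Thy1 and to 3.75% for Slc17a6, the vesicular glutamate transporter of RGCs. Isl1 differed by more, 12.9%. Among the 9 RGC markers the value ran from -22.1% for Tubb3 to 29.9% for Sncg, with a median of 12.7%. Tubb3 was also the marker with the highest level in WT non-RGCs, at 72.2% of its RGC level. The cause of this spread was not tested.

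**Figure D3:**
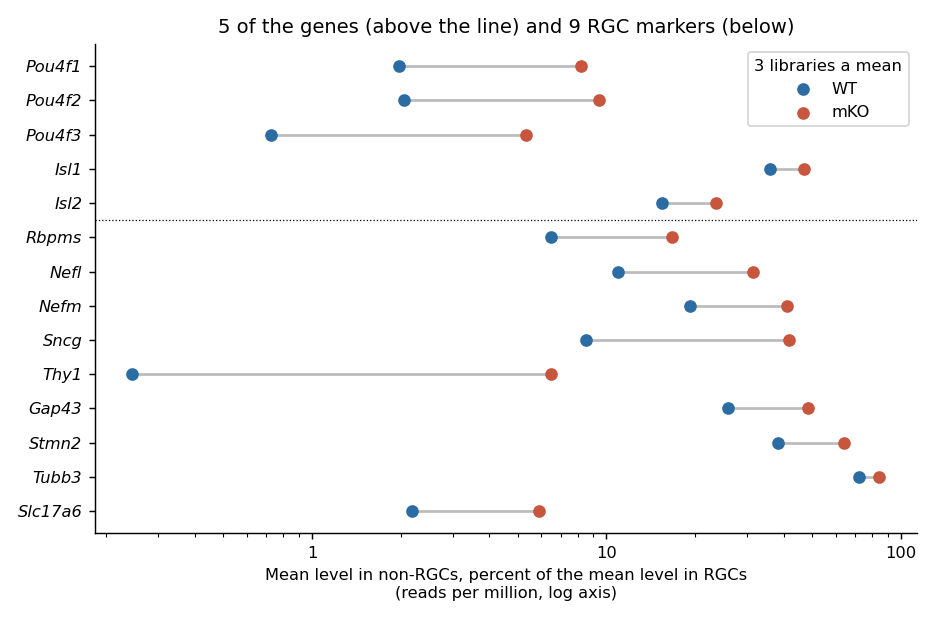
Mean level in non-RGCs as a percent of the mean level in RGCs of the same genotype (RPM, log axis, 3 libraries a mean) for the Pou4f and Isl genes above the dotted line and 9 RGC markers below it. Every gene lies farther right in mKO than in WT, the Pou4f genes moving from 0.727-2.05% to 5.34-9.45% and Thy1 from 0.246% to 6.48%.

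Whether the genotype difference itself differed between the fractions was tested as an interaction in the fit over 12 libraries. Pou4f2 passed, with a difference of differences of -2.11 on the log2 scale (95% interval -2.72 to -1.5, adjusted p = 0.00645). Pou4f1 and Pou4f3 had values of -2.14 (-3.0 to -1.29, adjusted p = 0.0609) and -2.48 (-3.54 to -1.43, 0.0927). Only 0.121% of the 16517 genes tested passed, 20 genes, all of them lower. Of these 20, 9 others were on the lists of RGC genes and markers used here, among them Thy1 (-3.80), Irx4 (-2.59), Sncg (-2.21) and Ebf1 (-1.86). WT non-RGC library C held the most Pou4f reads of its group. Without it, Pou4f1 and Pou4f3 passed as well (-2.61, adjusted p = 5.42e-06, and -3.0, adjusted p = 0.000573). Over all limma fits that left out 1 library, their adjusted p-values ran up to 0.212 and 0.305. Isl1 (-0.37, adjusted p = 0.526), Isl2 (-0.62, 0.441) and Atoh7 (-0.31, 0.822) did not pass.

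Atoh7 (ENSMUSG00000036816; chromosome 10 from 63099651 to 63101279, plus strand) was the least abundant member in RGCs and the only one lower in mKO in both fractions by its mean. In RGCs it had 81.1, 84.7 and 293 normalised reads in WT and 54.1, 89.4 and 50.8 in mKO. The groups overlapped, and the log2 fold change of -1.0 had a 95% interval from -2.20 to 0.20 (adjusted p = 0.164). WT library C carried most of this difference, since without it the value was -0.40. With the GC trend removed it was -0.71 (adjusted p = 0.386), and after both corrections -0.84 (0.354). In non-RGCs it had 239, 224 and 260 normalised reads in WT and 136, 128 and 181 in mKO, without overlap. There the log2 fold change was -0.71 (-1.15 to -0.27, adjusted p = 0.0492), just under the threshold. It was -0.54 (adjusted p = 0.0942) when scaled to total reads, -0.52 (0.146) with the GC trend removed, and lost its call without any 1 library other than mKO C.

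The genes with the most similar course to Atoh7 over the 12 libraries were Lfng, Dll4 and Btbd17, the first pair being a modulator and a ligand of Notch signalling. Their log2 RPM, centred on their own mean, differed from those of Atoh7 by a root mean square of 0.18, 0.24 and 0.24, the nearest among 15322 genes. Lfng had 36.8, 35.7 and 119 RPM in WT RGCs and 25.2, 42.6 and 21.3 in mKO RGCs. Its high WT RGC library was also C, which a choice by likeness to Atoh7 over these same libraries favours. In non-RGCs the log2 fold changes of Lfng, Dll4 and Btbd17 were -0.84, -0.59 and -0.45, given without a test since these libraries also chose the genes. The 8 progenitor markers summed to 2118 to 2556 RPM in WT and 1826 to 2176 in mKO non-RGCs. None of them was called in non-RGCs, and 2 of 8, Ccnd1 and Hes5, fell in RGCs. The part of progenitor RNA in the Atoh7 values was not tested.

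**Figure D4:**
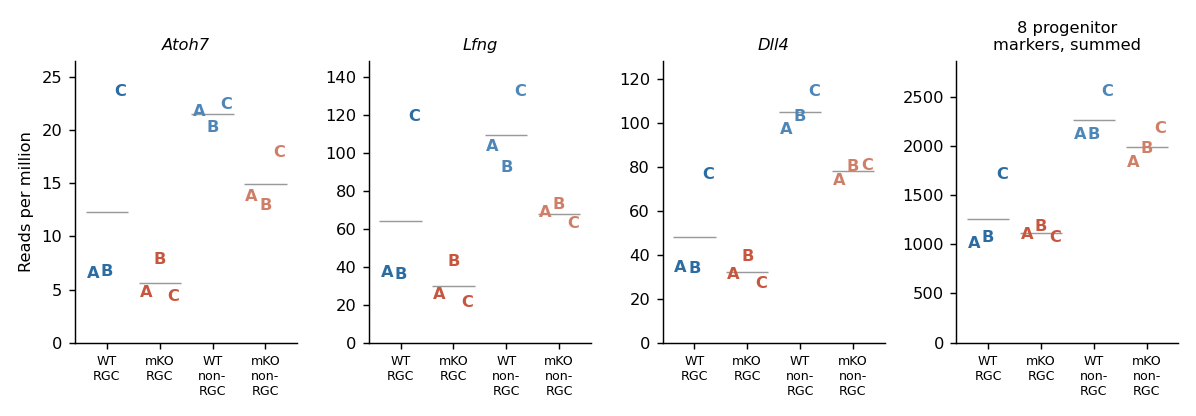
Library-scaled reads (RPM, axes from 0) of Atoh7, Lfng, Dll4 and the sum of 8 progenitor markers in the 12 libraries, each letter naming its library and each grey line a group mean. WT RGC library C stands above the other RGC libraries in all 4 panels, with 23.7 RPM of Atoh7, 119 of Lfng, 76.4 of Dll4 and 1713 of the markers. Lfng and Dll4 were chosen for their likeness to Atoh7 over these same libraries.

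The same measure set the other members apart from one another. Pou4f1 and Pou4f2 were close (root mean square 0.30), with Slc17a6 and Irx2, a homeobox gene of RGCs, also among the nearest of each (0.40 and 0.47 from Pou4f1, 0.27 and 0.31 from Pou4f2). Pou4f3 was nearest to Irx4 (0.35), Mstn (0.46) and Thy1 (0.48), genes that likewise were almost absent from WT non-RGCs. Isl1 was nearest to Grb14 (0.09), Rab3b (0.11) and Sh3bp5 (0.12), and Isl2 to Kif5a (0.15), Tspan17 (0.17) and Ydjc (0.18). Isl1 and Isl2 differed from each other by 0.58 and from Pou4f2 by 1.67 and 1.2. These distances describe 12 libraries in which the fraction dominates, and they share depth and scaling.

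Genes around the members in the network were counted in lists. Counts without correction are to be read against the 21.2% of all genes called lower and 16.3% called higher in RGCs. In non-RGCs these shares were 6.43% and 4.18%. With the GC trend removed far fewer of all genes were called, so these shares do not apply to the corrected counts. The corrected counts over all genes are given in the last paragraph. Of 13 progenitor and proneural genes that act before or beside Atoh7, 8 were lower in mKO RGCs and 0 higher, with a median log2 fold change of -0.58 against 0.00 for all genes. In non-RGCs 4 were lower and 0 higher (median -0.39). Six3, an eye-field homeobox gene, changed by -0.58 in RGCs, Rax by -0.87, Notch1 by -0.76 and its targets Hes5 and Hes1 by -0.79 and -0.47, with adjusted p-values of 0.000651 to 0.00980. With the GC trend removed, 4 of the 13 were called lower in RGCs and 1 in non-RGCs.

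Of 14 cofactors, namely LIM domain partners of the Isl proteins and E and Id partners of bHLH factors, 6 were lower and 1 higher in mKO RGCs (median -0.24), and 1 was lower in non-RGCs. Ldb1, which bridges LIM homeodomain proteins, changed by -0.71 (adjusted p = 0.00161) and its partners Ssbp4, Ssbp3 and Lmo4 by -0.80, -0.45 and -0.50. Rlim, a ubiquitin ligase acting on the Ldb proteins, was higher by 0.41 (adjusted p = 0.00362). With the GC trend removed, 4 of the 14 were called lower and 0 higher in RGCs.

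Of 25 other transcription factors of the RGC network, 10 were lower and 2 higher in mKO RGCs (median -0.28), and in non-RGCs 5 were lower and 4 higher. Irx5 (-0.66), Sox4 (-0.72), Barhl2 (-0.59) and Ebf4 (-0.63) fell in RGCs, and Onecut2 rose (1.49, adjusted p = 0.00105). Ebf1, Irx2 and Irx4 were among those that rose in non-RGCs, and were named after their values were seen. With the GC trend removed, 5 were lower and 1 higher in RGCs.

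Of 22 genes of RGC differentiation that lie after Atoh7, Pou4f2 or Isl1, 11 were lower and 0 higher in mKO RGCs (median -0.36), while in non-RGCs 11 were higher and 1 lower (median 0.76). In RGCs Thy1 changed by -0.73, Tubb3 by -0.68, Rbpms2 by -0.63, Sncg by -0.58 and Stmn2 by -0.54. In non-RGCs Thy1 (3.86) and Sncg (1.63) rose, and Tubb3 (-0.53), Rbpms2 (0.60) and Stmn2 (0.13) did not pass. Another 11 genes of the list were not called in RGCs and 10 in non-RGCs. With the GC trend removed it held 11 lower genes in RGCs and 7 higher in non-RGCs.

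Of 20 remaining POU and LIM homeodomain genes, relatives of the members, only 13 were abundant enough to be tested. In RGCs 2 were lower, Pou3f3 (-1.52) and Lhx2 (-0.68), and Pou2f1 was higher (0.67). In non-RGCs Pou3f3 (-1.65) and Lhx2 (-0.59) were lower too. Pou3f1 (-0.36, adjusted p = 0.0705) did not pass in RGCs. Removing the GC trend left 1 of the 13 called lower and 0 higher in RGCs.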

How the data were processed

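Poly-A RNA of bead-purified RGCs and non-RGCs was sequenced as single reads. Per the study's methods and the submitters' processing notes, reads were aligned with STAR 2.3.1z4 to mm10, counted with featureCounts and normalised with DESeq, and the tables are named for primary alignments with duplicates removed. The deposited signal columns hold the genotype mean of counts divided by size factors. The fold change, log2 and p-value columns made by the authors were not used.

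From the digits of each mean the 3 whole read counts behind it were recovered, with exactly 1 solution for 100.0% of genes with reads in all 4 groups. With steps shifted slightly, 0 of 579 to 714 genes per group were solved. On simulated means, 4743 of 4778 WT RGC genes were recovered exactly. limma 3.58.1 (R 4.3.3) was run on log2(count + 1) for genes whose mean count reached 10 in WT or mKO, with trend and Benjamini-Hochberg adjustment over all genes tested. A joint fit of all libraries gave fraction and interaction contrasts. Lengths and GC content came from the GENCODE M21 exons on GRCm38. Trends with GC content were removed per library by lowess (span 0.3), and those with GC content and reads per exon base jointly by subtracting the median of the 300 most alike genes. Members, gene lists and tests were chosen with earlier results of these data known. Named were every member, the 5 genes of smallest adjusted p per list in RGCs, and the 3 genes nearest each member over the libraries, beside markers and exceptions stated in the text. A gene that this rule names is not reported here. The triplicates came from 3 independent RNA extractions. Nothing in the sources used here says whether these were separate animals, so p-values measure the spread between these samples.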

Additional observations from a re-analysis of the deposited data

Results flagged for a closer look

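The genotype difference in RGCs minus that in non-RGCs passed the limma interaction test (adjusted p under 0.05) for Pou4f2 among the members, at -2.11 on the log2 scale. It also passed for these genes of the lists, always with the lower value in RGCs: Thy1 at -3.80, Irx4 at -2.59, Sncg at -2.21, Ebf1 at -1.86, Nefl at -1.52, Irx2 at -1.43, Rbpms at -1.37, Rbpms2 at -1.25 and Nefm at -1.09. Dixon's test for an outlying sample was not applied to groups of 3 libraries.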

How the results depend on the processing

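No paired analysis was possible because the recovered libraries carry no replicate numbers, so the fit with a replicate block was not run. In RGCs, removing the GC trend gave log2 fold changes of -0.35 for Isl1, then called, and 0.14 for Isl2, reversed. Removing the GC and reads per base trends gave 0.22 for Isl2 and 0.17 for Pou4f3, both reversed, and -0.037 for Pou4f2, no longer called, with 1 member called in place of 3. Isl1 reversed to 0.083 when scaled to total reads, to 0.039 when scaled to the upper quartile and to 0.021 without WT RGC library A. In non-RGCs, Atoh7 lost its call at -0.71 with no filter on low means (more genes tested), -0.54 scaled to total reads, -0.58 scaled to the upper quartile, -0.52 corrected for GC content and -0.51 after both corrections. Pou4f1 and Pou4f3 lost theirs corrected for GC content (1.56 and 3.16) and after both corrections (1.40 and 2.75), leaving 1 member called in place of 4 each time. Over the lists, 36 genes were lower and 4 higher in RGCs, 19 were lower with a fold change of at least 1.5 and 1 was higher with the GC trend removed. In non-RGCs 12 were lower and 6 with the GC trend removed. The cause of these changes was not tested.

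Leaving out 1 library at a time, the ranges in RGCs were -0.37 to -0.16 for Pou4f3, -0.46 to -0.33 for Isl2 and -0.12 to 0.021 for Isl1, with 2 to 4 members called. In non-RGCs they were 1.23 to 2.06 for Pou4f1, 1.49 to 1.98 for Pou4f2, 2.17 to 3.87 for Pou4f3 and -0.86 to -0.61 for Atoh7, with 0 to 3 called. Between fractions Atoh7 in WT ranged from -1.63 to -0.74, with 5 to 6 members called. The interaction ranged from -2.61 to -1.87 for Pou4f1, -3.0 to -2.04 for Pou4f3 and -0.62 to 0.28 for Atoh7, with 1 to 3 called.

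Over all genes, 2622 were called higher and 3405 lower in RGCs, 3846 and 2240 when scaled to total reads, 603 and 1650 corrected for GC content and 277 and 660 after both corrections. In non-RGCs the counts were 641 and 985, then 1329 and 447, 127 and 142, and 87 and 132. Scaling to total reads moved the median log2 fold change of all genes by 0.12 in RGCs and 0.17 in non-RGCs. Without mKO non-RGC library B only 47 were higher and 92 lower. The few reads of Pou4f3 in WT non-RGCs limit its fold change, and 3 libraries a group limit all tests.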
